A study of Homo sapiens with 5 samples.

Results

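The genes of C4-2B cells exposed to isoflavone for 72 h were compared with those of C4-2B cells exposed to BR-DIM for 6 h, on 2 of the 5 arrays of the study, 1 array for each condition. C4-2B is a bone-metastatic derivative of the androgen-responsive LNCaP prostate cancer line. The isoflavone was G2535, a soy mixture rich in genistein and daidzein, and BR-DIM, which the labels call B-DIM, is a formulated 3,3′-diindolylmethane, the condensation product of the indole-3-carbinol of cruciferous vegetables. Both were given at 25 µM, which for isoflavone is the concentration of its genistein, in RPMI 1640 medium with serum. The other arrays were a control with 0.1% DMSO, BR-DIM for 48 h and isoflavone for 6 h. How long the control was cultured is not stated in the sources used here. The cells were those of 1 established line, and as every condition has a single array, differences could not be set against replicate spread and no p-value was computed. Agent and time differ together between the compared arrays and cannot be told apart.

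The pair was chosen by the signal of CDH1, the gene of E-cadherin, the adhesion protein of epithelial cells. CDH1 had signals of 2195 on the control, 2114 and 99.5 with BR-DIM (6 h, then 48 h) and 85.9 and 3736 with isoflavone (6 h, then 72 h). The ratio of CDH1 between the compared arrays was 0.82 on the log2 scale, and a dimmer probe set of the gene gave −0.13. These values selected the arrays and support nothing here. The signals are linear intensities, scaled by the authors so that the trimmed means of the arrays lay between 498.1 and 498.4. A floor was set at 97.1, the median signal over all arrays, and dimmer signals were lifted to it before each log2 ratio was taken, so that a ratio touching the floor is a bound. Probe sets whose names end in _s_at or _x_at are those whose probes match several transcripts. The median signal was 95.4 on isoflavone 72 h and 109.1 on BR-DIM 6 h, with 49.7% and 52.6% of probe sets over the floor. Of 19775 genes with a named probe set, 13135 were measured, meaning that 1 or both of the compared signals exceeded the floor.

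The labelled cell type was checked against its markers. KLK3, the prostate-specific antigen, and KRT18, a keratin of luminal cells, were well above the floor on both arrays, with KRT18 at 2680 on isoflavone 72 h against 2940 on BR-DIM 6 h. Of 21 epithelial junction genes, 19 lay above the floor on each of the 2 arrays, against 13 on each of BR-DIM 48 h and isoflavone 6 h. CDH1, by which the arrays were chosen, is among these genes, so the contrast is not independent of that choice and supports nothing here. Of 12 prostate luminal factors and keratins, 11 lay above it on each of the compared arrays and 6 on each of the other treated arrays. KRT19, a keratin of many glands, lay under the floor on all 5 arrays. VIM, the mesenchymal intermediate filament vimentin, was bright on all of them, between 22024 on the control and 50009 on BR-DIM 48 h. Of 10 macrophage and osteoclast markers, 1 exceeded the floor after BR-DIM for 6 h and 2 after isoflavone for 72 h, with summed signals of 375.9 and 402. Of 9 osteoblast markers the counts were 4 and 2, with summed signals of 1931 and 1036. RUNX2, an osteoblast marker, exceeded the floor in both cases, with 451.2 after BR-DIM and 406.6 after isoflavone. So did the collagen COL1A1, with 972 and 413.5 in the same order. SP7, the osteoblast transcription factor osterix, was under the floor on both of these arrays. In RNA from a whole culture, fewer cells of a kind and less RNA per cell cannot be told apart.

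The aryl hydrocarbon receptor (AhR) is a transcription factor that binds planar ligands, among them indole derivatives, pairs with ARNT and switches on the enzymes that oxidise such ligands. NRF2 and the metal sensor MTF1 switch on detoxifying enzymes and metallothioneins, and NF-kB switches on chemokines, secreted proteins that draw in white blood cells.

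At 2-fold or more, 323 of 13135 genes (2.46%) were higher on isoflavone 72 h than on BR-DIM 6 h and 324 (2.47%) were lower. The median log2 ratio was −0.04, and the quartiles were −0.33 and 0.27. The counts were alike in size, but large differences were more often on the higher side. At 4-fold or more 19 genes were higher and 4 lower, and at 8-fold or more 4 were higher and 2 lower. Of the higher genes 208 reached 388.4, that is 4 times the floor, on either array and 63 ratios were bounds, and of the lower genes 150 reached it and 84 were bounds. The genes nearest to 2-fold on the higher side were FOLH1B, just inside with 1066 over 532.8, and FEZ1, just outside with 4239.6 over 2120.1. On the lower side they were SH3BP1, just inside with 25.8, raised to the floor, over 194.2, and TLE2, just outside with 307.3 over 613.6.

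**Figure D1:**
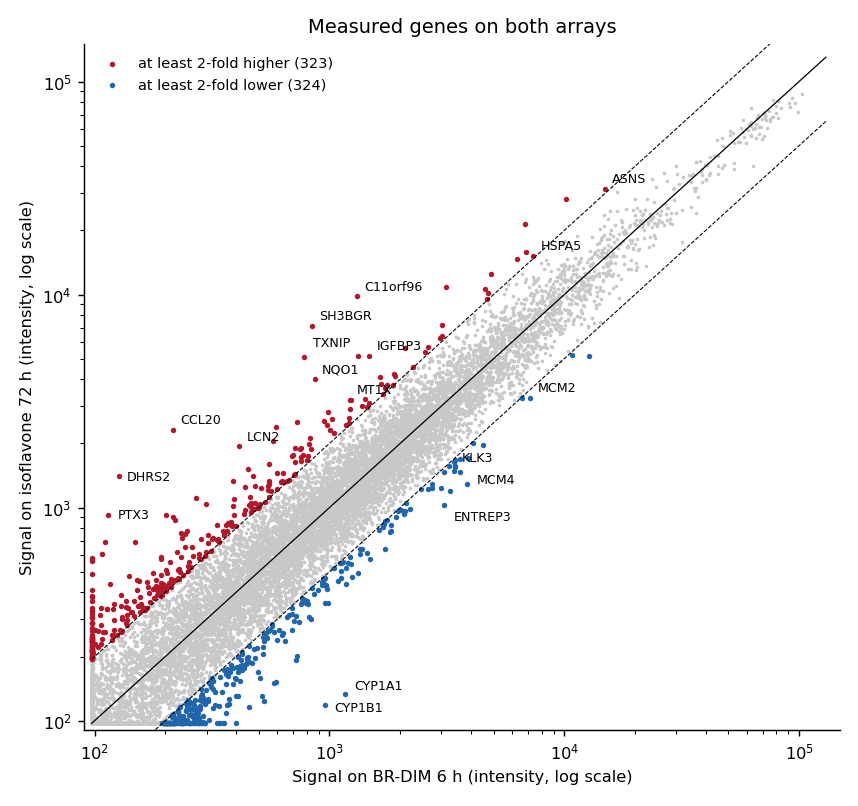
Each point is 1 of 13135 measured genes by its signal on BR-DIM 6 h (x axis, intensity, log scale) and on isoflavone 72 h (y axis, intensity, log scale), with signals under 97.1 raised to it; the solid line marks equal signals and the dashed lines 2-fold. Most genes lie between the dashed lines, CYP1A1 and CYP1B1 stand far below them, and DHRS2, CCL20, SH3BGR and PTX3 stand far above.

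The lowest ratios of all bright genes were those of the AhR targets CYP1A1 and CYP1B1, monooxygenases that oxidise polycyclic aromatics and estrogens. CYP1A1 had signals of 88.9 on the control, 1170 and 166 with BR-DIM (6 h, then 48 h) and 83.7 and 133.9 with isoflavone (6 h, then 72 h). It was high on BR-DIM 6 h and low on the other 4 arrays, and its signal was 8.74-fold lower on isoflavone 72 h than on BR-DIM 6 h. CYP1B1 had signals of 172.2 on the control, 960.5 and 1048 with BR-DIM (6 h, then 48 h) and 150.1 and 118.2 with isoflavone (6 h, then 72 h). It was high on both BR-DIM arrays and under the control on both isoflavone arrays, with a ratio of −3.02 on the log2 scale between the compared arrays, or −1.71 with its probe sets averaged. TIPARP, a mono-ADP-ribosyltransferase that restrains AhR, was also high on both BR-DIM arrays, but it was under the control on neither isoflavone array. It stood at 1188 on the control, 3267 and 4138 with BR-DIM (6 h, then 48 h) and 1779 and 1192 with isoflavone (6 h, then 72 h). CYP1A2, the liver form of the same enzyme family, had 362.6 on BR-DIM 6 h and between 109.1 and 139.4 on the other arrays. This comes from an _x_at probe set at low signals. The log2 ratio of CYP1A2 was −1.73, but −0.87 with its probe sets averaged, which is within 2-fold.

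Of 9 listed AhR targets 7 were measured, of which 4 were lower at 2-fold or more, where 2.47% of all measured genes were, 1 was higher and the median log2 ratio was −1.45 (−0.87 with all probe sets of a gene averaged). The members did not move as 1 group. AHRR, the repressor of AhR, differed by 0.45 on the log2 scale. NQO1, a quinone reductase that AhR and NRF2 both induce, went the other way, with 4000 on isoflavone 72 h against 865.5 on BR-DIM 6 h and 919.6 on the control. NQO1 was 4.62-fold higher on isoflavone 72 h, and its other probe sets gave log2 ratios of 1.67 and 1.79. On the 2 remaining treated arrays NQO1 was low, at 160.5 on isoflavone 6 h and 48.3 on BR-DIM 48 h. The median log2 ratio of the list to the control was 1.46 for BR-DIM 6 h and 0.00 for isoflavone 72 h.

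Promoter sequences of CYP1A1, TIPARP and NQO1 are shown because these genes carry one response element core in common and differ in direction. They are RefSeq windows of GRCh38.p14 from 250 bases before the start of the gene to 50 after it, written 5′ to 3′ along the gene, with the core of the xenobiotic response element that AhR and ARNT bind in capitals (GCGTG, or CACGC where it lies on the other strand). CYP1A1 is on the minus strand at chr15:74725479-74725778, TIPARP on the plus strand at chr3:156674340-156674639 and NQO1 on the minus strand at chr16:69726511-69726810.
CYP1A1: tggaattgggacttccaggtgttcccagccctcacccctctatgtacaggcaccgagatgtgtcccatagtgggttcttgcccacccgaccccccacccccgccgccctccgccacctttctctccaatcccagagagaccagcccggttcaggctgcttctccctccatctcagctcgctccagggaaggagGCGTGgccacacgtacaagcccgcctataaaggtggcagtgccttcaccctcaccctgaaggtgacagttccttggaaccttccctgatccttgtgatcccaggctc
TIPARP: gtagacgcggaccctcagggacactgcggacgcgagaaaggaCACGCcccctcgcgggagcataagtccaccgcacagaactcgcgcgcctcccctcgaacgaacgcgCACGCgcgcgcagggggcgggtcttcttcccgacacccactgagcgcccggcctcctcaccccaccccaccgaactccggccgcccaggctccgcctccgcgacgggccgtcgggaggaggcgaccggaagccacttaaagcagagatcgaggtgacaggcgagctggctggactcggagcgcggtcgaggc
NQO1: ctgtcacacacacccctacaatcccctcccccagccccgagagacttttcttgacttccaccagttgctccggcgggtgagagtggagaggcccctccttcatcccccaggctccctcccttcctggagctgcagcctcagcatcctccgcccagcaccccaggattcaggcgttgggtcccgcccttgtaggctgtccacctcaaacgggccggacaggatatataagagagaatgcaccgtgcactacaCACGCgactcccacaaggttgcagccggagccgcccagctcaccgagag
The core lay at −57 from the start in CYP1A1, at −208 and −142 in TIPARP and at 1 in NQO1. It was found on either strand in 5 of the 7 AhR target promoters in the table, and in 36.3% of all 27305 promoters of this length. A match of so short a core is common and describes only these letters in this window.

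Cholesterol synthesis genes lay on the lower side on isoflavone 72 h. All 18 measured cholesterol synthesis genes had ratios under 0, where 53.7% of all measured genes did, and their median was −0.41. Of these, 3 were lower at 2-fold or more, beside 2.47% of all genes, and none was higher. HMGCS1, which makes the HMG-CoA of the pathway, had 809.2 on the control, 1812 and 1842 with BR-DIM (6 h, then 48 h) and 1662 and 766.5 with isoflavone (6 h, then 72 h). HMGCS1 on isoflavone 72 h was thus near the control and the other treated arrays stood above it. INSIG1, which holds the sterol sensor SCAP in the endoplasmic reticulum, had 1483 on isoflavone 72 h against 3402 on BR-DIM 6 h and 730.7 on the control. INSIG1 was above the control on both compared arrays and 2.29-fold lower on isoflavone 72 h, but its probe sets without an _s_at or _x_at ending gave only −0.20 on the log2 scale. DHCR7, the enzyme of the last step to cholesterol, was lower by 2.11-fold (−0.94 on the log2 scale with its probe sets averaged). Relative to the control, the list had a median of −0.04 for isoflavone 72 h, where BR-DIM 6 h had 0.37.

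Growth and replication genes lay mostly on the lower side on isoflavone 72 h, most of them by less than 2-fold. Of 30 replication and nucleotide supply genes, 23 had ratios under 0, where 53.7% of all measured genes did, and 4 were lower at 2-fold or more, where 2.47% of all were. None was higher and the median was −0.25. MCM4, MCM2 and MCM5 are subunits of the helicase that unwinds DNA at replication forks. MCM2 had 8048 on the control, 7177 and 6016 with BR-DIM (6 h, then 48 h) and 6898 and 3283 with isoflavone (6 h, then 72 h). MCM4 had 2844 on the control, 3868 and 3136 with BR-DIM (6 h, then 48 h) and 3522 and 1293 with isoflavone (6 h, then 72 h). Both had their lowest signal on isoflavone 72 h, and so did MCM5, at 1686 against 3299 to 4006. The ratio of MCM4 was −1.58, but −0.75 on its second probe set and −0.94 with its probe sets averaged, under 2-fold. RRM2, a subunit of ribonucleotide reductase, had a ratio of −1.05, while another bright probe set of the gene gave −0.06. Of 30 mitosis genes, 22 had ratios under 0, again beside 53.7% of all genes, and the median was −0.28. At 2-fold 1 was lower, beside 2.47% of all genes. Of 11 housekeeping genes 8 had ratios under 0, with a median of −0.23, so shifts of this size also occurred in reference genes. MKI67, the proliferation antigen Ki-67, was lower by 2.28-fold (−0.50 on the log2 scale with its probe sets averaged), with 1973 on isoflavone 72 h and 4500 to 5181 on the other arrays, and PLK1, KIF20A and CDC20, which drive mitosis, had ratios of −0.95, −0.90 and −0.90. All 4 named mitosis genes had their lowest signal on isoflavone 72 h.

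Other lists of cell growth lay on the same side with few calls. The 17 ribosome biogenesis genes had a median of −0.39, with 1 lower at 2-fold, beside 2.47% of all genes. This was POLR1A, the large subunit of RNA polymerase I, at 173.6 on isoflavone 72 h against 422.3 on BR-DIM 6 h. Another probe set of POLR1A gave −0.11 on the log2 scale. The 23 genes of oxidative phosphorylation had a median of −0.36, with 19 under 0, beside 53.7% of all genes, and none past 2-fold. NDUFA9, a subunit of complex I, was the farthest of these at −0.93. The 11 housekeeping genes had a median of −0.23 and reached from −0.67 for ACTB, beta-actin, to 0.29 for B2M, with none past 2-fold, so shifts of this size also occurred in genes used as references. The 19 cytosolic ribosomal proteins had a median of −0.05.

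**Figure D2:**
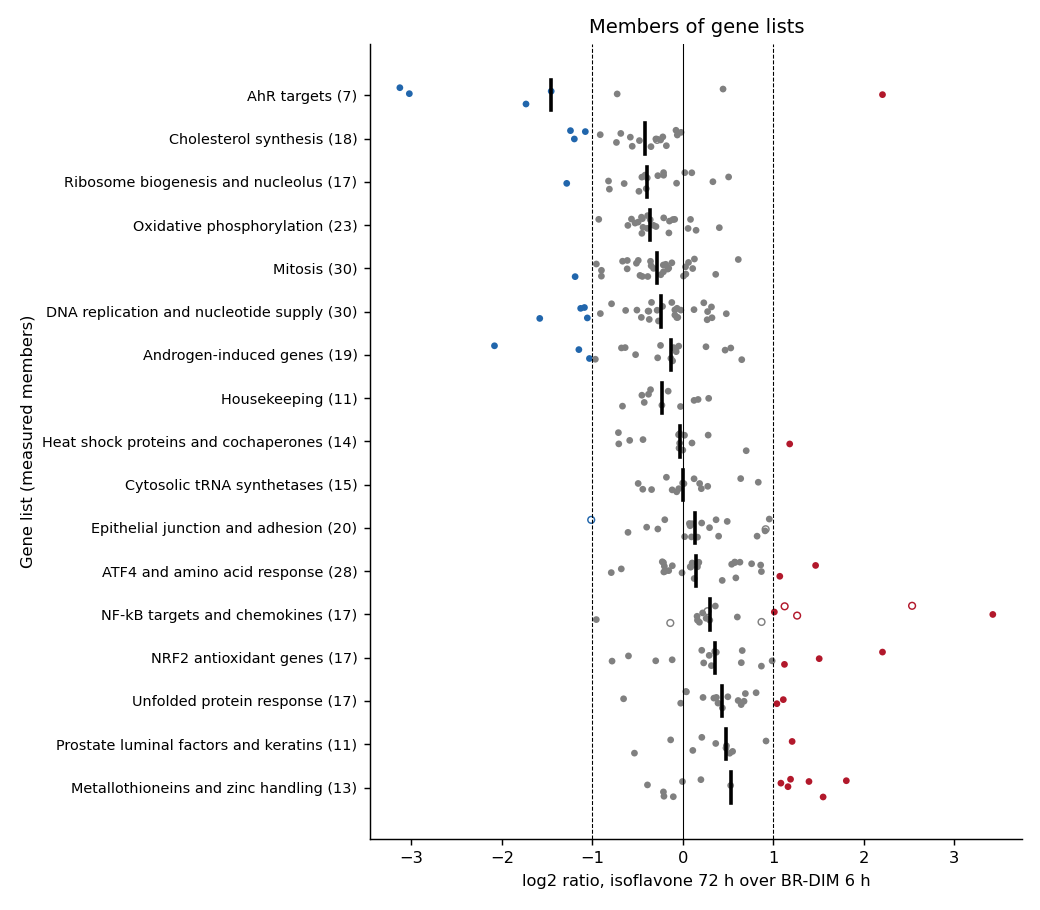
Each point is a measured gene of the list named on the y axis (number of measured members in brackets), placed by its log2 ratio of isoflavone 72 h over BR-DIM 6 h; red and blue points are 2-fold or more higher and lower, open points are bounds at the floor, and thick bars are list medians. The AhR targets split into 4 lower genes and NQO1, all 18 cholesterol genes lie under 0, and 6 metallothioneins lie beyond 2-fold on the higher side.

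Androgen-induced genes lay mostly on the lower side. Of 19 measured members 15 had ratios under 0, where 53.7% of all measured genes did, and 4 had ratios above it. At 2-fold or more 3 were lower, beside 2.47% of all genes, none was higher and the median was −0.13. KLK2, the kallikrein next to prostate-specific antigen in the genome, had 706.7 on the control, 524.7 and 7.2 with BR-DIM (6 h, then 48 h) and 11.4 and 124 with isoflavone (6 h, then 72 h). KLK3 had 5096 on the control, 3424 and 14.6 with BR-DIM (6 h, then 48 h) and 269.5 and 1545 with isoflavone (6 h, then 72 h). Both kallikreins were under the control on all treated arrays and lower on isoflavone 72 h than on BR-DIM 6 h, with log2 ratios of −2.08 and −1.15. Another probe set of each gave −1.53 and −1.36. ABCC4, a transporter of organic anions, was lower by 2.04-fold, and STEAP2, a metalloreductase of prostate epithelium, had a ratio of 0.65. With probe sets averaged KLK2, KLK3 and ABCC4 had −0.90, −0.96 and −0.78, all within 2-fold. The luminal transcription factors and keratins did not follow the kallikreins. Their median over 11 genes was 0.48, with 9 above 0, where 46.2% of all measured genes were, and 2 below. ELF3, an epithelial ETS factor, was higher by 2.31-fold at a low signal of 301.3, and EHF, another ETS factor, had 0.92. With probe sets averaged these 2 had only 0.40 and 0.07. HOXB13, a factor of the same list, was on the lower side at −0.53, or −0.89 averaged. SPDEF had 0.55, but −0.30 averaged.

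The epithelial junction genes, whose member CDH1 chose the arrays, had a median of 0.13 over 20 measured genes, with none higher at 2-fold and 1 lower, TJP3, a tight junction protein, whose ratio of −1.01 is a bound at low signals. EPCAM, an adhesion protein of epithelia, had 1097 on isoflavone 72 h against 565.5 on BR-DIM 6 h. The 16 measured mesenchymal genes had a median of −0.02. The 2 that were lower at 2-fold were the collagens COL3A1, with a bound of −1.85, and COL1A1, at −1.23. Of all measured genes 2.47% were lower at 2-fold or more.

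The genes that stood highest on isoflavone 72 h included secreted proteins of inflammation. CCL20, a chemokine for dendritic and T cells, had 143.9 on the control, 215.5 and 6.5 with BR-DIM (6 h, then 48 h) and 55.4 and 2319 with isoflavone (6 h, then 72 h). CXCL8, the neutrophil chemokine interleukin-8, had 563 on isoflavone 72 h and between 32.2 and 100.5 on the other arrays. LCN2, a siderophore-binding protein, had 245.2 on the control, 413.1 and 4.9 with BR-DIM (6 h, then 48 h) and 71.7 and 1937 with isoflavone (6 h, then 72 h). Each of the 3 was highest on isoflavone 72 h by a wide margin. They were higher than on BR-DIM 6 h by 10.8-fold for CCL20, at least 5.80-fold for CXCL8 and 4.69-fold for LCN2. CCL8, another chemokine, had 578 on isoflavone 72 h and under 97.1 on all other arrays. Of 17 measured NF-kB targets and chemokines 5 were higher at 2-fold or more, where 2.46% of all measured genes were, none was lower and the median was 0.30. The others were CCL2 and CXCL2, chemokines with bounds of 1.26 and 1.13, and NFKBIA, the inhibitor of NF-kB, at 1.01, where a dim probe set of the gene gave −0.20. In all, 15 of the 17 had ratios above 0, where 46.2% of all measured genes did. CXCL8, CCL2 and CXCL2 were under the floor on BR-DIM 6 h, at 55.1, 40.5 and 12.4. They counted as measured only through isoflavone 72 h, so their direction was fixed by the floor and adds nothing to these counts. CXCL8 gave 0.91 on its second probe set, and CXCL2 0.38 with its probe sets averaged.

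Metallothioneins, small proteins that bind zinc and copper, were higher on isoflavone 72 h. All 6 measured metallothioneins of the list passed 2-fold, where 2.46% of all measured genes did, none of the 7 zinc transporters and sensors beside them did, and the median over the 13 was 0.53. MT1X had 1382 on the control, 1221 and 301.3 with BR-DIM (6 h, then 48 h) and 1012 and 3213 with isoflavone (6 h, then 72 h). MT2A had 2638 on the control, 2951 and 733.8 with BR-DIM (6 h, then 48 h) and 1788 and 6261 with isoflavone (6 h, then 72 h). Both were highest on isoflavone 72 h and lowest on BR-DIM 48 h. The log2 ratios were 1.81 for MT1F, 1.55 for MT1E, 1.40 for MT1X, 1.19 for MT1H, 1.16 for MT1G and 1.09 for MT2A. All 6 are read by probe sets whose names end in _x_at, and cannot be taken as separate measurements. Without such probe sets the list keeps only its zinc transporters and sensors, with a median of −0.10. SLC39A8, a zinc importer, had 0.53.

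The promoters of MT1X and MT2A are shown because both genes passed 2-fold and hold repeated matches to a loose pattern, TGCNCNC. It was used here for the metal response element core that MTF1 binds, with N for any base. Matches on either strand are in capitals, and not every match need be such an element. They are RefSeq windows of GRCh38.p14 of the same length, on the plus strand at chr16:56682220-56682519 for MT1X and chr16:56608334-56608633 for MT2A.
MT1X: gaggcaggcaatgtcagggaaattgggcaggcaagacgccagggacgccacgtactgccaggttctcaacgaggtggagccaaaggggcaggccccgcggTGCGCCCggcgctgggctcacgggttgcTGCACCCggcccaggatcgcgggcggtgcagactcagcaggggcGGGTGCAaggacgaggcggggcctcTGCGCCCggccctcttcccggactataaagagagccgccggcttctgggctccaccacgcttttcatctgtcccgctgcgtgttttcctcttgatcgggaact
MT2A: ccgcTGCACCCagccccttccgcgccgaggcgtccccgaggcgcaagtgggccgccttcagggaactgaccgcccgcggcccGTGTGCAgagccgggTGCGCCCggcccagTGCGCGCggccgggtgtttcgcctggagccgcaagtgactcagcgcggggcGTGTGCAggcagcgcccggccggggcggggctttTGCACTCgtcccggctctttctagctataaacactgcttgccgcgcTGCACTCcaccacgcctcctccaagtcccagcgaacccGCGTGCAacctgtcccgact
MT1X held 4 matches and MT2A 8. The pattern was found in 7 of 10 promoters of the list and in 55.2% of all promoters. A match to so loose a pattern is common and describes only these letters in this window.

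Detoxifying and redox genes were partly higher on isoflavone 72 h. Of 17 NRF2 genes 3 were higher at 2-fold or more, beside 2.46% of all genes, none was lower and the median was 0.35. Beside NQO1 these were AKR1C1 and AKR1C2, reductases of steroids and prostaglandins, at 1.51 and 1.12, again from _x_at probe sets of near-identical genes, and a probe set without that mark gave 0.09 for AKR1C1. HMOX1, heme oxygenase, was just under 2-fold at 0.99, and SLC7A11, the cystine importer, had 0.87. GSTA1, a glutathione transferase, was 4.63-fold higher, with 691.1 on isoflavone 72 h, 149.2 on BR-DIM 6 h and 227.9 on the control, and was the only one of 17 measured glutathione enzymes past 2-fold. Another probe set of GSTA1 gave −0.02 on the log2 scale, and the average of its probe sets 1.09. SQSTM1, the autophagy receptor p62, had 5592 on isoflavone 72 h and between 1530 and 2102 on the other arrays, but only 0.31 on the log2 scale by its probe sets without an _s_at or _x_at ending.

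The amino acid response stood above the control on both compared arrays and differed little between them. It is driven by ATF4, which switches on amino acid synthesis and import. Over its 28 genes the median ratio to the control was 1.72 on isoflavone 72 h and 1.49 on BR-DIM 6 h. Between the compared arrays the median was 0.14, with 2 genes higher at 2-fold, beside 2.46% of all measured genes, and none lower. SLC7A11 had 472.8 on the control, 3446 and 2813 with BR-DIM (6 h, then 48 h) and 234.6 and 6297 with isoflavone (6 h, then 72 h). ASNS, asparagine synthetase, had 4353 on the control, 14932 and 28562 with BR-DIM (6 h, then 48 h) and 19146 and 31413 with isoflavone (6 h, then 72 h). ASNS was above the control on all treated arrays and 2.10-fold higher on isoflavone 72 h than on BR-DIM 6 h. The other was ATF5, a factor of the same family, at 492.7 on isoflavone 72 h against 178 on BR-DIM 6 h. With probe sets averaged neither passed 2-fold, with log2 ratios of 0.54 for ASNS and 0.21 for ATF5, and ASNS also fell just short of it with quantile normalization. CHAC1, which degrades glutathione, had −0.79. The 15 cytosolic tRNA synthetases, part of the same programme, had a median of 0.00 and none past 2-fold.

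The unfolded protein response, which answers unfolded protein in the endoplasmic reticulum, was on the higher side on isoflavone 72 h. Of 17 genes 15 had ratios above 0, where 46.2% of all measured genes did, and the median was 0.44. Of the 17, 2 were higher at 2-fold or more, beside 2.46% of all measured genes, and none was lower. HSPA5, the chaperone BiP, had 8138 on the control, 7394 and 9591 with BR-DIM (6 h, then 48 h) and 11529 and 15213 with isoflavone (6 h, then 72 h). DNAJB9, its co-chaperone, had 701.6 on the control, 1042 and 2167 with BR-DIM (6 h, then 48 h) and 1354 and 2252 with isoflavone (6 h, then 72 h). HSPA5 was lowest on BR-DIM 6 h and DNAJB9 on the control, and the ratios were 1.04 and 1.11, or 0.77 and 0.94 with probe sets averaged, under 2-fold. The 14 heat shock proteins of the cytosol had a median of −0.03.

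**Figure D3:**
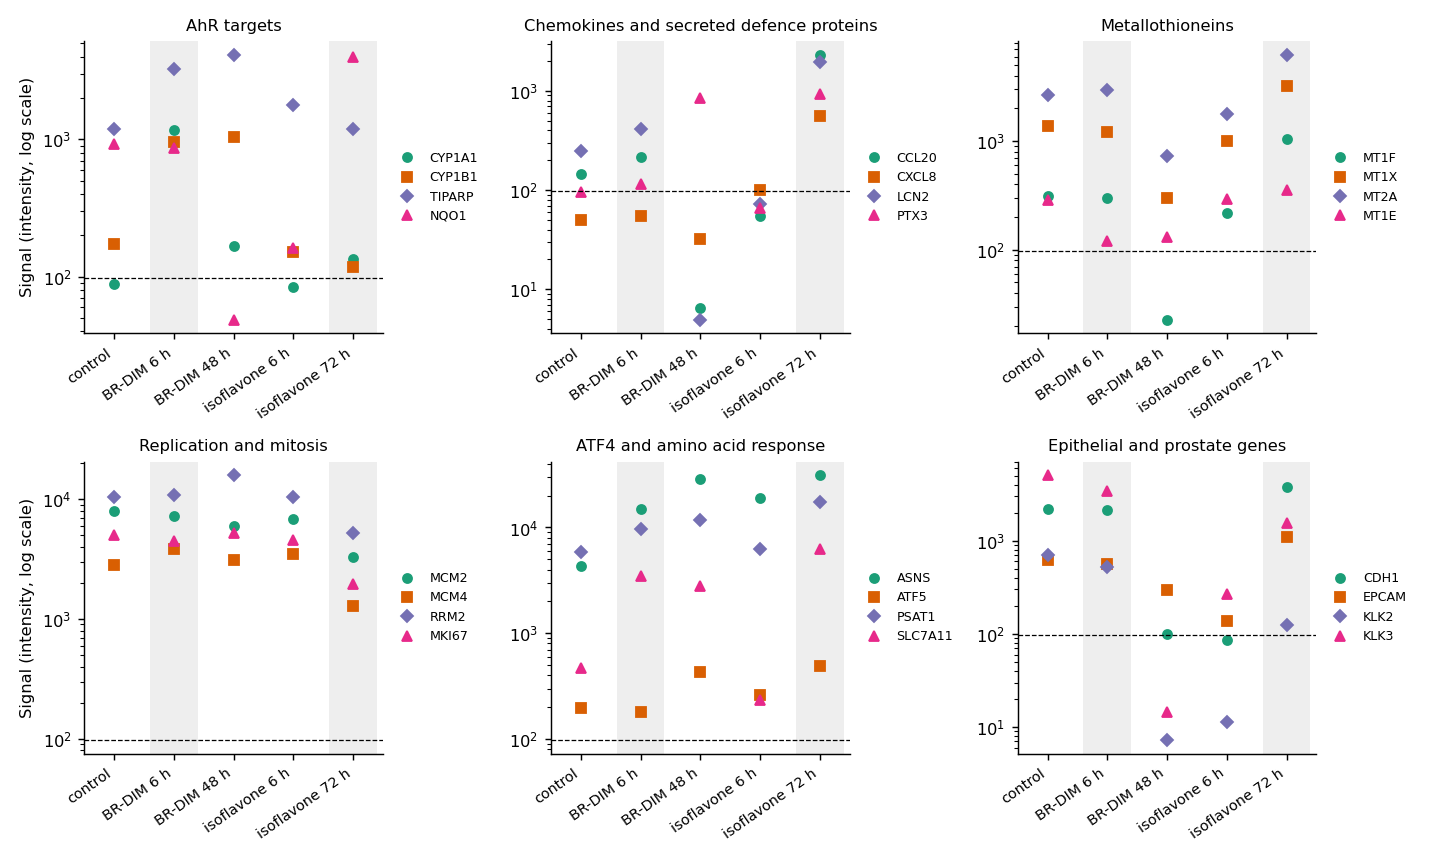
Signals (y axis, intensity, log scale) of 4 genes in each of 6 groups on the 5 arrays (x axis), with the compared arrays shaded and the floor of 97.1 dashed; each point is 1 array. CYP1B1 and TIPARP are high on both BR-DIM arrays. The chemokines and metallothioneins are highest on isoflavone 72 h, and MCM2, MCM4, RRM2 and MKI67 are lowest there. SLC7A11 is high on both compared arrays and on BR-DIM 48 h. The epithelial and prostate genes drop on BR-DIM 48 h and isoflavone 6 h.

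Genes of growth control and metabolism were found at both ends. TXNIP, which binds thioredoxin and limits glucose uptake, had 1864 on the control, 782.5 and 1711 with BR-DIM (6 h, then 48 h) and 1433 and 5065 with isoflavone (6 h, then 72 h). TXNIP was lowest on BR-DIM 6 h and highest on isoflavone 72 h, 6.47-fold apart, and its other probe sets gave 2.63 and 3.03 on the log2 scale. TP53INP1, a p53 target that promotes cell death and autophagy, was 4.02-fold higher (0.64 on the log2 scale with its probe sets averaged), with 2386 on isoflavone 72 h against 594 on BR-DIM 6 h. BAX, the pore-forming protein of apoptosis, was 2.03-fold lower (−0.87 on the log2 scale with its probe sets averaged). Of 16 measured p53 and GADD45 targets these were the only genes past 2-fold, and the median was 0.39. Of all measured genes 2.46% were higher at 2-fold or more and 2.47% lower. IGFBP3, which binds insulin-like growth factors, had 825.2 on the control, 1478 and 140.4 with BR-DIM (6 h, then 48 h) and 45 and 5164 with isoflavone (6 h, then 72 h). IGFBP3 was 3.49-fold higher on isoflavone 72 h and IRS1, the insulin receptor substrate, 2.21-fold higher, while IGFBP5, another binding protein of the axis, was 2.79-fold lower. With probe sets averaged IRS1 and IGFBP5 were within 2-fold, at 0.50 and −0.35 on the log2 scale. EGR1, an immediate early transcription factor, was 2.88-fold higher, and NR4A1, an orphan nuclear receptor of the same early class, was 2.70-fold lower, or −0.59 on the log2 scale with its probe sets averaged.

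The genes that the study tabulates lay mostly within 2-fold between the compared arrays, as far as they were read. Of the 10 tabulated probe sets 8 had a symbol, and those of NKX3.1 and p38 were left out. KLK3 was the only gene read that was past 2-fold. CREB1, a cAMP-responsive factor, had a ratio of −0.95, but −0.10 with its probe sets averaged and 0.22 without _s_at and _x_at probe sets. The ratios of the others were, for CCND1, cyclin D1, −0.72, MITF, a factor of melanocytes and osteoclasts, −0.48, AKT1, a kinase of survival signalling, 0.45, CDK13, a transcriptional kinase, 0.22 (−0.41 without such probe sets), and CDKN1B, the inhibitor p27, 0.20. For CCND1 a brighter probe set gave 0.24, with 876.3 on isoflavone 72 h against 742.1 on BR-DIM 6 h. The direction of CREB1, CCND1 and CDK13 thus depended on the probe set. Of the 32 measured genes of the RANKL pathway, 1, NFKBIA, was higher at 2-fold, beside 2.46% of all measured genes. None was lower and the median was 0.16. Of 34 genes of prostate cancer signalling, 1 was higher and 1 lower, beside 2.46% and 2.47% of all measured genes, with a median of 0.06. The higher one was RB1, the retinoblastoma protein, at 1.03, where a dimmer probe set gave −1.56.

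The remaining high genes had few partners in the lists. DHRS2, a mitochondrial reductase, had 1410 on isoflavone 72 h and between 92.6 and 155.8 on the other arrays. It was the highest ratio of all bright genes, 11.1-fold, and its second probe set gave 2.29 on the log2 scale. DIO3, which inactivates thyroid hormone, had 690.6 on isoflavone 72 h and 110.3 on BR-DIM 6 h, and GPNMB, a glycoprotein of melanosomes and bone cells, had 920.4 and 202.2. CFAP70, a protein of cilia, had 606 and 107.2, and FBXL15, a ubiquitin ligase subunit, had 487.6 and 97.7. Among low genes, IL12A, a subunit of interleukin-12, was 3.94-fold lower, and NRP1, a co-receptor of VEGF and semaphorins, 3.75-fold. DPP4, a dipeptidyl peptidase of the cell surface, was 3.64-fold lower, and NRG1, a ligand of ERBB receptors, 3.91-fold. PPFIA3, ZNF599, TEX15, BAHCC1, MYO1E, BTF3P12 and ENTREP3 completed the 15 lowest bright genes, between −2.05, a bound for PPFIA3, and −1.59, and for NRP1 and ENTREP3 the probe sets without such an ending gave −0.26 and −0.13. Another probe set gave 0.66 for ZNF599, on the opposite side, and −0.39 for PPFIA3. Without _s_at and _x_at probe sets DPP4 had −0.70 and TEX15 −0.80, but −1.10 and −1.38 with probe sets averaged. Averaging gave −0.53 for NRG1 and −0.56 for BAHCC1, but they had −1.30 and −1.68 without _s_at and _x_at probe sets.

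The same genes were then read on isoflavone 6 h over BR-DIM 48 h, arrays that share none with the compared pair. This ratio keeps the order of the agents and turns that of the times, and both of its arrays are those with low CDH1. Over all 12842 genes measured there, 3.12% were higher at 2-fold or more and 8.04% lower. Of the 301 higher genes measured there, 23 (7.64%) were also higher and 46 (15.3%) lower, with a median of −0.26. Of the 303 lower genes measured there, 45 (14.9%) were also lower and 21 (6.93%) higher, with a median of −0.12. The share of genes past 2-fold was above the background in both directions for both sets, and most genes of either set did not carry their direction over. Across 12074 genes measured in both pairs, the 2 ratios had Pearson r = −0.042 and Spearman rho = −0.046, a description over genes on 4 arrays of 1 experiment.

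Some named genes kept their order by agent in the second pair, and others kept their order by time. CYP1B1, TIPARP, IL12A and NR4A1 had ratios of −2.80, −1.22, −2.13 and −1.55 there, and were thus higher on BR-DIM than on isoflavone in both pairs, while CYP1A1 had −0.77. MT1H, MT1X, MT2A, MT1F and MT1E had 2.28, 1.75, 1.29, 1.17 and 1.17, and EGR1 had 1.22, and these were higher on isoflavone in both pairs. MT1G was not, at −0.23. On isoflavone 6 h MT1X and MT1F were under the control, at 1012 and 218.9 against 1382 and 311.4. MT1H was above it, at 476.1 against 273.4. On BR-DIM 48 h MT1X, MT1F and MT1H stood under the control, at 301.3, 22.5 and 97.9. C11orf96, PTX3 and SH3BGR turned, with −3.16, −3.12 and −2.50. PTX3, a secreted pattern recognition protein, had 94.7 on the control, 114.3 and 846.9 with BR-DIM (6 h, then 48 h) and 66.2 and 921.3 with isoflavone (6 h, then 72 h). SH3BGR, a small SH3-binding protein, had 423.7 on the control, 844 and 4560 with BR-DIM (6 h, then 48 h) and 804.5 and 7143 with isoflavone (6 h, then 72 h). C11orf96 had 956 on the control, 1316 and 6986 with BR-DIM (6 h, then 48 h) and 780.1 and 9849 with isoflavone (6 h, then 72 h), and a dim probe set of it gave 0.64 between the compared arrays. These 3 were higher on the arrays of 48 h and 72 h, with either agent, than on both arrays of 6 h. DUSP4, a phosphatase of MAP kinases, turned as well, from −1.23 to 1.07. DHRS2 and TXNIP did not pass 2-fold in the second pair, at −0.61 and −0.26, and CCL20, LCN2 and DIO3 were under the floor on both of its arrays.

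**Figure D4:**
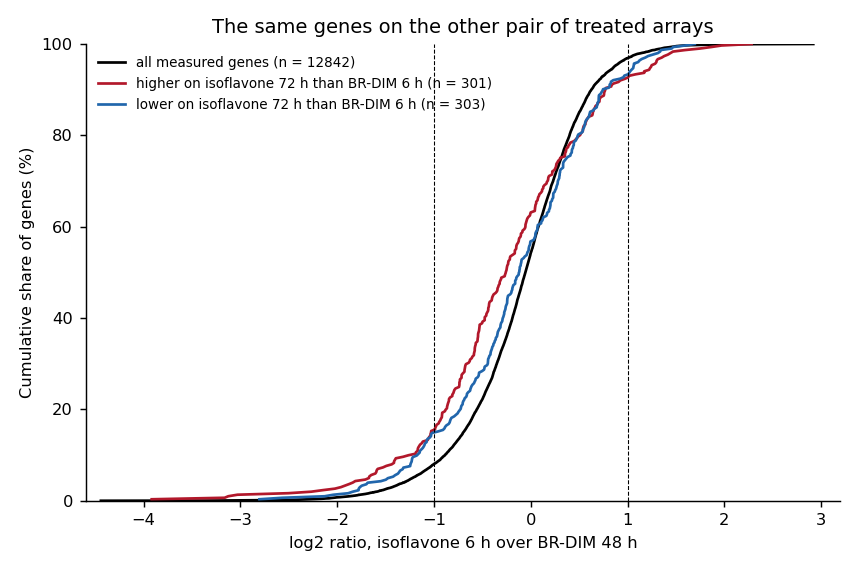
Cumulative share of genes (y axis, percent) by their log2 ratio of isoflavone 6 h over BR-DIM 48 h (x axis), for all 12842 genes measured there (black), the 301 higher (red) and the 303 lower (blue) on isoflavone 72 h than on BR-DIM 6 h; dashed lines mark 2-fold. The red and blue curves lie to the left of the black one at negative ratios and to its right at large positive ones, with medians of −0.26 and −0.12.

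Gene lists on the second pair showed the same split. Over all genes measured there 3.12% were higher at 2-fold or more and 8.04% lower. Of 8 AhR targets measured there 3 were lower at 2-fold and none higher, with a median of −0.53. The cholesterol genes turned, from −0.41 to 0.30, as did the replication genes, from −0.25 to 0.17, and oxidative phosphorylation, from −0.36 to 0.26, with 2 cholesterol genes lower at 2-fold and no other call in the 3 lists. The ATF4 list had a median of −1.67 there, with 19 of 28 genes lower at 2-fold, against 0.14 in the compared pair. Of 15 epithelial junction genes 8 were lower, with a median of −1.01, while EPCAM had −1.09.

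How far a single probe set carries a gene was read from other probe sets of the same gene. Of the 323 higher genes 149 had another measured probe set, and 18 of these (12.1%) were also higher at 2-fold, 71 lay on the same side within 2-fold and 60 were at 0 or opposite. Of the 324 lower genes 157 had one, and 24 (15.3%) were also lower at 2-fold, 97 lay on the same side and 36 were at 0 or opposite. Over all 6715 genes with another measured probe set, 2.92% and 3.74% of these were higher and lower at 2-fold. Where the other probe set was itself bright, 41 of 51 higher and 41 of 53 lower genes kept their direction, and 13 and 9 passed 2-fold. The genes that the results above turn on showed the same direction on further probe sets for NQO1, TXNIP, DHRS2, KLK2, KLK3, IGFBP3 and CYP1B1, with IGFBP3 at 1.35 on its second probe set. Genes named above with another probe set near 0 or on the opposite side included RRM2 at −0.06, NFKBIA at −0.20, RB1 at −1.56, GSTA1 at −0.02, ZNF599 at 0.66, TP53INP1 at 0.04 and POLR1A at −0.11, and within 2-fold CCND1 at 0.24 and CREB1 at 0.22.

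**Figure D5:**
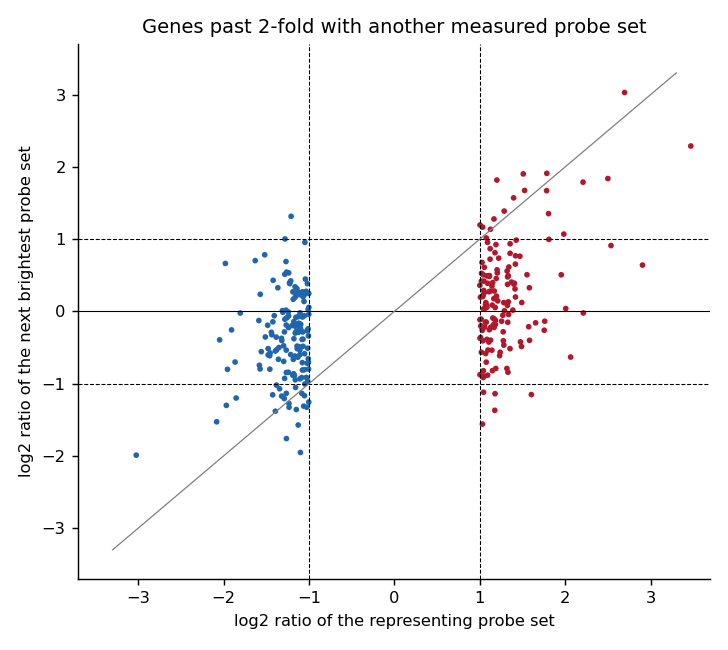
Each point is a gene past 2-fold with another measured probe set, by the log2 ratio of its representing probe set (x axis) and of the next brightest one (y axis), isoflavone 72 h over BR-DIM 6 h; red genes are higher, blue lower, dashed lines mark 2-fold and the grey line equal ratios. Many points lie near 0 on the y axis, with medians of 0.13 for the 149 higher and −0.36 for the 157 lower genes.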

How the data were processed

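Total RNA of C4-2B cells was hybridised to Affymetrix human genome arrays. The authors made the deposited values with MAS5, per the labels' processing notes, as 1 linear intensity per probe set. Its version, scaling target and detection calls are not given in the sources used here. Among 54613 probe sets, 41091 were paired with a single symbol by the platform table, and those with several (1801) or with no entry (11721) were left out. The study lists 10 probe sets, called tabulated here, and 8 of them have a symbol. A gene was read from its brightest probe set, or the tabulated one, and the floor was the median of all signals (97.1).

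The arrays, the 48 gene lists and the named genes were chosen with earlier results of these data known. Genes were named as the 15 largest ratios each way among those bright enough (4 times the floor on 1 array), the 4 members of a list farthest from 0, the tabulated genes, CDH1 and the genes nearest 2-fold. Marker genes of cell types and the members MT1G, MT2A, CHAC1 and STEAP2, where outside this rule, were chosen after their values were seen. Each group holds 1 array, which limits the precision, and no test was run. Scripts used Python 3.11.15, numpy 2.4.6, pandas 2.3.3, scipy 1.17.1 and matplotlib 3.10.9 and were tested on simulated data. Alternatives were other scalings, floors, probe set choices and fold rules.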

Additional observations from a re-analysis of the deposited data

How the results depend on the processing

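The counts of 323 higher and 324 lower genes moved by over 1.5 times in one or both directions under 6 alternatives. They were 576 and 901 with no floor, 108 and 68 when the floor was the 75th percentile (471.7), 200 and 211 when 97.1 was added to each signal as a pseudocount, 159 and 135 when a gene was the average of its probe sets, 1286 and 1506 at 1.5-fold, and 47 and 25 at 3-fold. The share of calls that were higher was 49.9%, against 39.0% with no floor and 61.4% with the higher floor. Quantile normalization gave 359 and 284, median ratio scaling 330 and 314, probe sets without _s_at or _x_at 295 and 234, and genes above the floor on both arrays 260 and 240. The median of all genes stayed between −0.05 and −0.01 under the alternatives of scaling, floor and probe set. The share of lower genes also lower on isoflavone 6 h than on BR-DIM 48 h was 14.9%, and 25.2% with no floor, 10.6% with the higher floor and 7.75% with the pseudocount. Among named genes past 2-fold, 2 reversed: RB1 was at −0.26 with its probe sets averaged and NFKBIA at −0.20 without _s_at and _x_at probe sets. Counting those within 2-fold too, 3 and 8 named genes changed sign under these settings, CREB1, CCND1, CDK13, ATG7 and MAP2K6 among the latter, and none under the other settings of scaling, floor and filter. With probe sets averaged 37 named genes fell under 2-fold, and with the higher floor 18 did. The cause was not tested beyond these constructions. No array could be left out, since each group has 1. No paired analysis was possible because the labels give no shared replicate numbers. Genes near the floor limit the precision of 147 ratios, which are bounds.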
